A study of Homo sapiens and Mus musculus with 24 samples.

Results

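The metallothionein mRNAs described here are those of 9 genes, MT1E, MT1F, MT1G, MT1M, MT1X and MT2A of human and Mt1, Mt2 and Mt3 of mouse, out of 112096 genes in the count files of both species. They were taken as a named list by gene symbol and not by a rule on measured values, though earlier results of these data were known. RNA was sequenced from 4 cell types, with 3 UV-irradiated and 3 nonirradiated samples of each, 24 in all. HepG2 is a human hepatocellular carcinoma line, HEK293 a human embryonic kidney line and Neuro2a a mouse neuroblastoma line. HippCulture denotes primary hippocampal neurons from mouse embryos (E16.5), cultured from C57/BL6NCr animals and treated with AraC to remove glia. The labels name no engineered allele and no metal treatment in any group. Within a cell type the groups differ only in UV irradiation of the cells, which came before the extraction with TRIzol. Each cell line is a single line, and the labels do not say how many embryos a hippocampal sample holds. The paper's legends call the replicates biological triplicates, but neither they nor the labels say whether these came from separate cultures. The p-values thus measure the spread between these samples.

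Metallothioneins are very small proteins of the cytoplasm that are unusually rich in cysteine. Clusters of these thiolates bind zinc and copper, buffer them, and trap cadmium and other toxic metals. Their genes are classic targets of the zinc-sensing factor MTF1, which binds metal response elements in their promoters, and they also respond to glucocorticoids and oxidants. MT1 and MT2 forms are made in most tissues and strongly in liver, whereas MT3 is best known from the brain. In the assay used here, UV light crosslinks RNA to the proteins it touches, and crosslinked RNA is lost from the aqueous phase on extraction. The counts report the RNA that was recovered and reverse transcribed. From its RT-qPCR and northern blots the paper proposes that UV-made bonds also hinder reverse transcription. Loss on extraction and loss at that step cannot be told apart in the counts.

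All 6 human members lie in a single cluster on chromosome 16 of hg38, between MT2A (56608199 to 56609497) and MT1X (56682424 to 56684196), and MT1G (56666731 to 56668065) is the only member on the minus strand. MT1E spans 56625475 to 56627112, MT1M 56632233 to 56633986 and MT1F 56657694 to 56660698. Each principal coding transcript has 3 exons. The mRNAs are 398 to 704 nt long in human and 511 to 549 nt in mouse, and the coding part is 186 bases in every member except Mt3, where it is 207. Of the 61 sense codons in each of those, 20 encode cysteine (32.8%), and in Mt3 it is 20 of 68 (29.4%).

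The first 30 coding bases of the members are shown because the likeness of these mRNAs limits how reads can be assigned to a gene. Capitals mark bases that differ from MT2A in the human lines and from Mt1 in the mouse lines.
MT2A: atggatcccaactgctcctgcgccgccggt
MT1E: atggaCcccaactgctcTtgcgccAcTggt
MT1F: atggaCcccaactgctcctgcgccgcTggt
MT1G: atggaCcccaactgctcctgTgccgcTggt
MT1M: atggaCcccaactgctcctgcAccAcTggt
MT1X: atggaCcccaactgctcctgcTcGCcTgTt
Mt1: atggaccccaactgctcctgctccaccggc
Mt2: atggaccccaactgctcctgTGccTccgAT
Mt3: atggacccTGaGACctGcCCctGTCcTACT
MT1F differed from MT2A at 2 of these bases and MT1X at 6, while Mt3 differed from Mt1 at 15. Over the whole coding part, human members were between 88.7% (MT1F and MT1X) and 95.2% (MT1G and MT2A) identical, and Mt1 and Mt2 were 79.6% identical. Some 50-base stretches within the exons occur elsewhere in the genome. Their part of all such stretches was 15% for MT1G, 14% for MT1E, 13% for MT1M, 3.4% for MT2A, 2.0% for MT1X and 0.7% for MT1F. The mouse members had none. Reads that map to several places were not counted, because the counting used no option for them. Whether a read over a repeated stretch did so depends on its length, which is not given. On this point levels of MT1G, MT1E and MT1M are the most uncertain. MT1X shares 321 exon bases with a lncRNA on the same strand (ENSG00000259827.1), and Mt2 shares 432 with the antisense gene Gm45774. Reads on shared bases were counted for both genes and no strand option was used. On those bases reads of Mt2 and of its antisense partner cannot be told apart, nor can those of MT1X and its lncRNA.

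Promoter sequences from RefSeq (GRCh38.p14) were matched for MT2A and MT1X among the members. The core of the metal response element was searched as TGCACNC and TGCGCNC on both strands in the 250 bases before the start. MT2A held 7 cores and MT1X 4. At least 1 core was found in 24.8% of 35116 promoters and 3 or more in 1.6%. A stretch of each is shown with the cores in capitals, as the sequence feature for which the family is known.
MT2A, chr16:56608431-56608460, plus strand: TGCGCCCggcccagTGCGCGCggccgggtg
MT1X, chr16:56682394-56682423, plus strand: gtgcaaggacgaggcggggcctcTGCGCCC
The MT2A stretch lies 153 to 124 bases before the RefSeq start but inside the exon that the count files list for MT2A, while that of MT1X lies outside the listed exons. These matches describe letters only and no binding was measured.

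Libraries held 36573473 to 53511592 counts on genes in HepG2 and 6910907 to 11188033 in the other cell types, which sets the precision of low members. Scaled CPM below are counts over the library total times its TMM factor, as CPM, where the factor is a correction by edgeR that sets the bulk of genes to no change. These factors were 1.10 to 1.59 in nonirradiated and 0.619 to 0.904 in irradiated libraries. Without them the median log2 fold change of all genes moved by between -0.54 (HippCulture) and -1.30 (HepG2), so each change is also given by library size alone. Genes averaging at least 0.5 CPM without irradiation were tested by the quasi-likelihood method of edgeR, and p-values were adjusted after Benjamini and Hochberg over all genes tested. Cell type markers fit the labels, with all 9 hepatocyte genes tested in HepG2 and their sum at 0.845 to 2.99 scaled CPM in nonirradiated HEK293, where all 4 HEK293 markers were tested. Of 8 sympathetic neuroblast genes 7 were tested in Neuro2a, and all 9 neuronal genes in HippCulture.

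Metallothionein counts made up the highest share of all counts in HepG2, where MT2A was the most abundant member and all 5 tested members rose relative to the bulk of genes upon irradiation. Their log2 fold changes ran from 1.46 for MT1X to 2.14 for MT1F, with a median of 1.97. Of all 20117 genes tested in HepG2, 38.1% rose, so that a rise in itself was common. MT1M was below the limit for testing.

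MT2A, the major human MT2 form, had 48.4, 51.4 and 47.8 scaled CPM in nonirradiated HepG2 and 202, 190 and 188 in irradiated HepG2. Every irradiated library was far above every nonirradiated library, and libraries within a group were close. The means were 49.2 ± 1.88 and 193 ± 7.65 (SD, n = 3 each), and the log2 fold change was 1.97 (SE 0.07, adjusted p = 2.55e-07, edgeR).
MT1E followed with 29.8, 39.5 and 34.4 scaled CPM without and 148, 139 and 135 with irradiation. Its groups did not overlap either, and its log2 fold change was 2.03 (SE 0.11, adjusted p = 4.78e-07, edgeR).
MT1G, which has been studied as a gene silenced in liver tumors, gave 11.2, 11.1 and 10.7 against 35.7, 35.2 and 34.3 scaled CPM. This was the tightest of the members between replicates without irradiation, and it rose by 1.67 on the log2 scale (SE 0.07, adjusted p = 2.62e-07, edgeR).
MT1F had 4.13, 5.11 and 4.89 scaled CPM without and 22.2, 20.2 and 19.97 with irradiation. It showed the highest fold of the members here, 4.40 (log2 2.14, SE 0.10, adjusted p = 3.66e-07, edgeR).
MT1X had 4.44, 5.86 and 5.605 against 14.6, 14.5 and 14.7 scaled CPM. Its rise was the lowest, 1.46 (SE 0.11, adjusted p = 3.99e-06, edgeR). The lncRNA with which it shares exon bases had 158 to 269 counts without and 189 to 252 with irradiation. That lncRNA had a log2 fold change of 1.38 (SE 0.11, adjusted p = 4.93e-06, edgeR), with the shared reads counted for both.
MT1M was counted 17, 16 and 7 times without and 12, 21 and 24 times with irradiation. Its CPM by library total were 0.311 ± 0.149 and 0.417 ± 0.162 (SD, n = 3 each), which overlapped. Its scaled CPM, 0.106 to 0.302 and 0.371 to 0.793, did not, and it was not tested.
Without the TMM factors MT2A, MT1E, MT1G and MT1F still did not overlap between groups in HepG2, as was so for 9.95% of all genes in this direction, while MT1X overlapped. With them all 5 were apart, against 39.6% of all genes.
Of 15 other human metallothionein genes and pseudogenes in the files, MT1A alone passed the limit in HepG2. It had 71, 134 and 93 counts without and 196, 152 and 139 with irradiation (log2 fold change 1.94, SE 0.16, adjusted p = 5.16e-06, edgeR), and no other exceeded 6 counts in a library.

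In HEK293 only MT2A, MT1X and MT1F were tested. MT2A and MT1F rose, among 24.2% of 20472 genes that did so, and MT1X did not pass the test. MT1G and MT1M had 0 counts in all 6 libraries and MT1E a single count in an irradiated library. At this depth 0 counts over the nonirradiated group allow up to 0.105 CPM.

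MT2A gave 97, 74 and 78 counts without and 131, 136 and 132 with irradiation of HEK293, or 8.20, 5.99 and 5.91 against 19.6, 15.8 and 14.6 scaled CPM. The groups did not overlap with or without the TMM factors (27.1% and 8.87% of all genes were apart in this direction), and the log2 fold change was 1.31 (SE 0.20, adjusted p = 7.09e-04, edgeR).
MT1X was counted 48, 33 and 41 times against 47, 58 and 28 times, which is 4.06, 2.67 and 3.10 against 7.04, 6.73 and 3.10 scaled CPM. The third irradiated library lay among the nonirradiated ones, and the log2 fold change was 0.77 (SE 0.33, adjusted p = 0.080, edgeR). The replicate numbers pair the HEK293 samples by their correlations, and with the number as a block MT1X had a log2 fold change of 0.75 (SE 0.21, adjusted p = 0.0019, edgeR). It was called as well without the third irradiated replicate (1.11, adjusted p = 0.011, edgeR) and not called by library size alone. The lncRNA with which MT1X shares exon bases had 25, 24 and 23 counts without and 31, 39 and 16 with irradiation. Its log2 fold change was 0.90 (SE 0.37, adjusted p = 0.067, edgeR).
MT1F was near the limit of detection, with 3, 7 and 10 counts without and 6, 12 and 19 with irradiation. Its scaled CPM of 0.254, 0.566 and 0.757 did not overlap with 0.899, 1.39 and 2.1, and its log2 fold change of 1.47 (SE 0.48, adjusted p = 0.029, edgeR) was lost when any of 4 libraries was left out, nonirradiated replicates 1 and 2 and irradiated replicates 2 and 3, with adjusted p up to 0.12 (edgeR).

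Neuro2a had few metallothionein reads. The mouse members lie together on the plus strand of chromosome 8 of mm10, with Mt3 from 94152607 to 94154146, Mt2 from 94172664 to 94173568 and Mt1 from 94179082 to 94180327. Mt1 and Mt3 rose, among 28.9% of 17425 genes tested, and Mt2 had 0 counts in every library, which allows up to 0.120 CPM over the nonirradiated group. Mt1 was counted 26, 18 and 13 times without and 26, 23 and 27 times with irradiation. In scaled CPM this was 2.02, 1.31 and 1.16 against 4.84, 4.72 and 5.54, and the groups did not overlap on this scale (30.4% of all genes) or by library total (6.34%). The log2 fold change was 1.73 (SE 0.28, adjusted p = 1.04e-04, edgeR).
Mt3, the brain form, was counted 12, 19 and 8 times against 16, 18 and 29 times, that is 0.933, 1.38 and 0.714 against 2.98, 3.70 and 5.95 scaled CPM. Its counts as deposited overlapped between the groups and its scaled values did not, and its log2 fold change was 2.01 (SE 0.36, adjusted p = 2.28e-04, edgeR).

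In HippCulture all 3 mouse members were expressed and rose, among 26.1% of 18488 genes tested. Mt3, with the highest fold change of the 3, had 34.3, 35.5 and 36.2 scaled CPM without and 105, 124 and 121 with irradiation, a wide gap between groups, and its log2 fold change was 1.72 (SE 0.09, adjusted p = 7.33e-11, edgeR).
Mt1 had 29.3, 40.1 and 32.4 against 73.6, 47.7 and 66.0 scaled CPM. The second irradiated library was the lowest of its group and still above every nonirradiated one, and the log2 fold change was 0.89 (SE 0.13, adjusted p = 9.84e-06, edgeR).
Mt2 had 9.49, 11.7 and 11.2 against 21.9, 21.55 and 21.8 scaled CPM, with a log2 fold change of 1.01 (SE 0.13, adjusted p = 1.15e-06, edgeR). All 3 were apart between groups on this scale (29.3% of all genes), and Mt3 and Mt2 also by library total (8.72%). The antisense gene Gm45774 had 90 to 98 counts without and 89 to 151 with irradiation against 98 to 113 and 107 to 169 for Mt2. Gm45774 had a log2 fold change of 1.03 (SE 0.13, adjusted p = 1.38e-06, edgeR).
Astrocytes of the brain make much of its metallothionein, and astrocyte markers were present despite the AraC step. All 9 were tested in HippCulture, and their summed level was 1174 to 1183 scaled CPM without and 1374 to 1387 with irradiation, whereas by library total it was 1299 to 1521 CPM without and 990 to 1254 with irradiation. Of these, 5 rose (Gfap, Aldoc, Aldh1l1, Slc1a3 and Fgfr3, with log2 fold changes of 1.03, 1.17, 0.45, 0.25 and 0.39) and Slc1a2 fell by 0.51 (edgeR). In Neuro2a their summed level was 47.9 to 72.3 scaled CPM without and 91.5 to 150 with irradiation, of which Aldoc held 38.5 to 64.6 and 83.2 to 144, and no defining marker was at 0 in all of its nonirradiated libraries. The part of astrocytes in the metallothionein values was not tested, and in such bulk samples a different number of cells and a different amount of RNA per cell cannot be told apart.

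**Figure D1:**
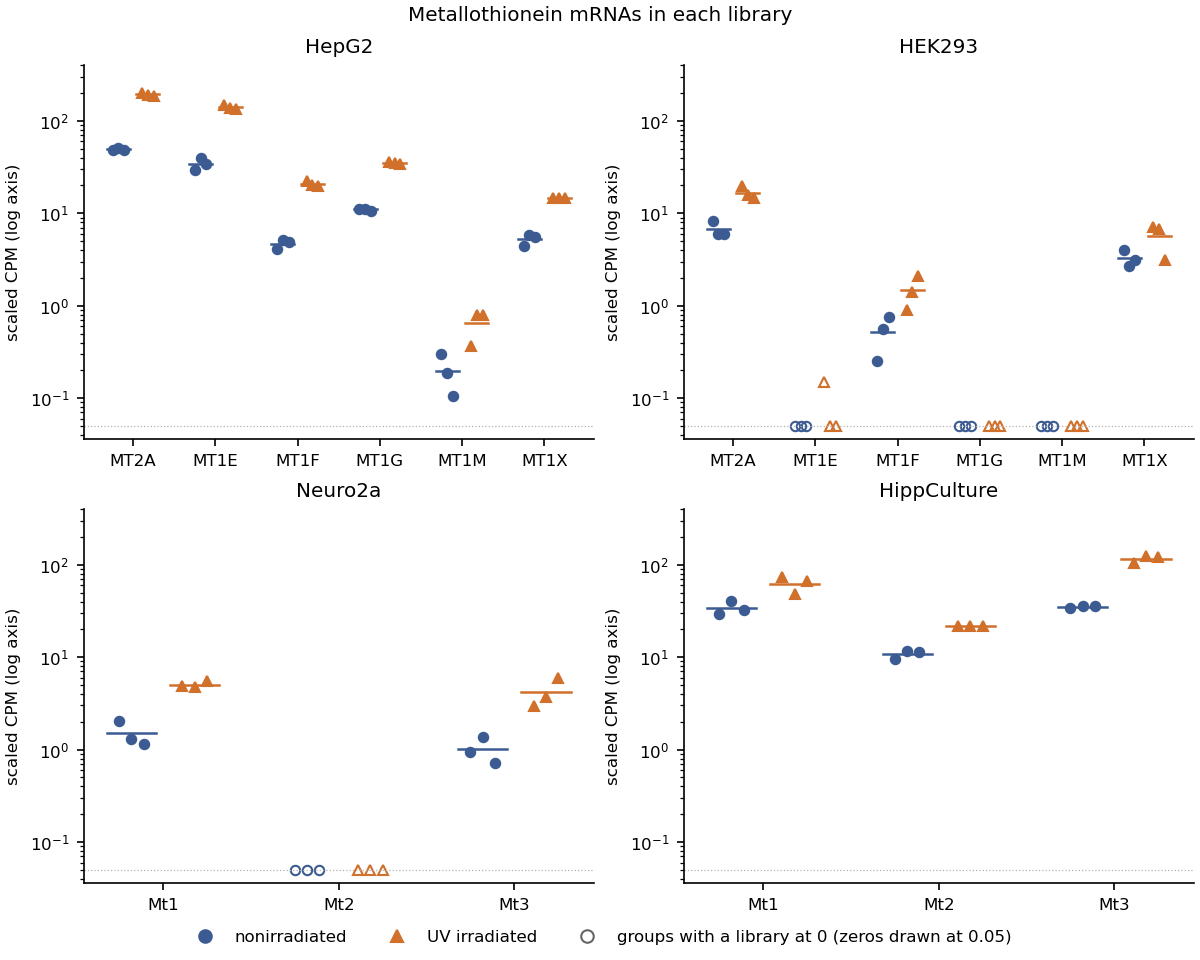
Scaled CPM (library total times TMM factor as denominator, log axis) of each metallothionein mRNA in every library of the 4 cell types, with blue circles for nonirradiated and orange triangles for irradiated libraries and a line at the mean of 3. Open symbols belong to groups with a library at 0, drawn at the dotted line, and irradiated HepG2 libraries of MT2A sit at 188 to 202 against 47.8 to 51.4 without irradiation.

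By library size alone the rises were smaller but most stayed positive. For HepG2 the log2 fold changes were then 0.67 for MT2A, 0.72 for MT1E, 0.83 for MT1F and 0.37 for MT1G, all called (adjusted p from 1.81e-05 to 9.79e-04, edgeR), and 0.15 for MT1X, not called (adjusted p = 0.27, edgeR). These 4 of 5 members compare with 8.62% of all genes that rose on this scale. In HEK293 only MT2A was called, at 0.54 (adjusted p = 0.032, edgeR; background 7.61%), while MT1F was at 0.72 (adjusted p = 0.24, edgeR) and MT1X at -0.005 (adjusted p = 0.99, edgeR). In Neuro2a Mt3 was called at 0.82 (adjusted p = 0.044, edgeR; background 6.07%) and Mt1 was not, at 0.54 (adjusted p = 0.086, edgeR). In HippCulture Mt3 at 1.17 and Mt2 at 0.46 were called (adjusted p = 5.95e-12 and 0.029, edgeR; background 7.14%), and Mt1 was at 0.35 (adjusted p = 0.059, edgeR).

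**Figure D2:**
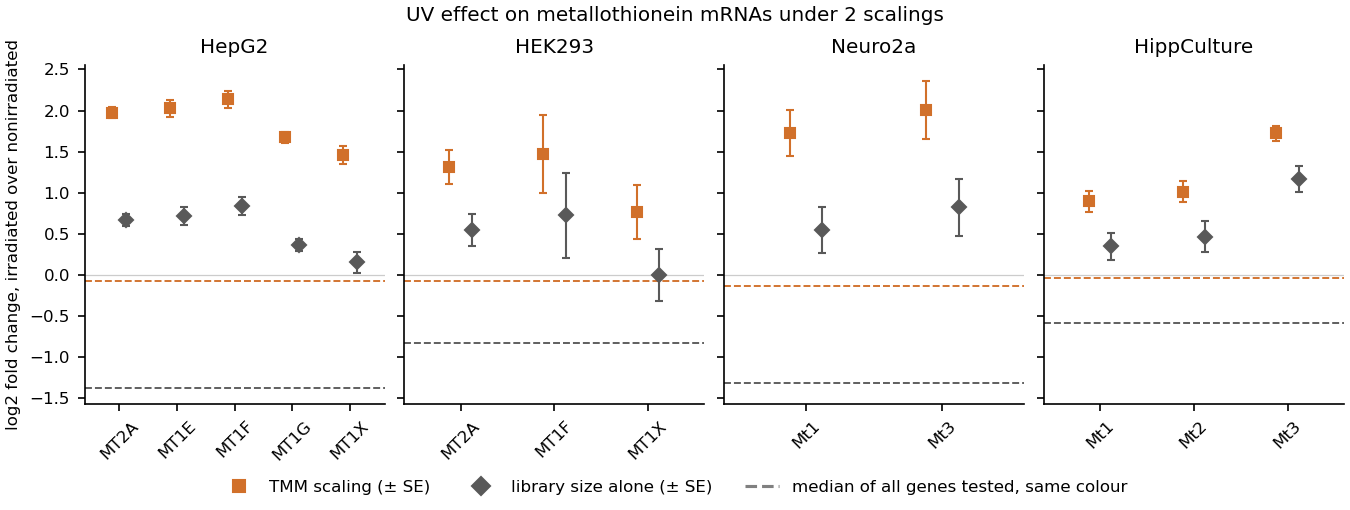
Log2 fold change (irradiated over nonirradiated, n = 3 each) of the tested metallothionein mRNAs in 4 cell types, with TMM scaling (orange squares) and by library size alone (grey diamonds), bars showing the SE from edgeR. Dashed lines of the same colour mark the median of all genes tested, at -0.08 and -1.38 in HepG2, and each member stands above the line of its own colour, a distance that a change of scaling leaves nearly as it is.

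The share of a library's counts that fell on the members does not use the TMM factors. It was 0.0151%, 0.0180% and 0.0164% in nonirradiated and 0.0262%, 0.0254% and 0.0258% in irradiated HepG2, from 5538 to 9637 and 10592 to 13673 counts. The ratio of the means was 1.56 and the groups did not overlap. The other shares were lower, 0.00137% ± 1.87e-04 and 0.00181% ± 1.86e-04 for HEK293, then 3.80e-04% ± 8.64e-05 and 6.09e-04% ± 1.11e-04 for Neuro2a, and lastly 0.00975% ± 0.00133 and 0.0167% ± 0.00256 for HippCulture (SD, n = 3 each). Ratios were 1.33, 1.603 and 1.71, and in all 4 cell types every irradiated library was above every nonirradiated library (exact two-sided permutation p = 0.1, the smallest that 3 against 3 allows). Against counts on protein-coding genes only, the ratios were higher, 2.22 in HepG2, 1.57 in HEK293 and 2.17 and 2.18 in Neuro2a and HippCulture.

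The make-up of the metallothionein counts within each library, which no scaling can alter, differed between groups for some members. In HippCulture Mt3 held 46.9%, 40.6% and 45.3% of the counts of the 3 members without and 52.3%, 64.1% and 58.0% with irradiation. Mt1 went from 42.2% ± 3.25 to 31.0% ± 6.03 and Mt2 from 13.5% ± 0.552 to 10.8% ± 0.369 (SD, n = 3 each). None of the 3 overlapped between groups (exact two-sided permutation p = 0.1, the smallest possible). Shares within a library add up to the whole, so a higher part of Mt3 lowers the others and these are not separate results. Mt1 and Mt2 both rose in scaled CPM.
In HepG2 the shares of MT2A (47.0% ± 2.06 and 47.7% ± 0.227) and MT1E (32.8% ± 2.33 and 34.7% ± 0.312) overlapped between groups. MT1F went from 4.48% ± 0.260 to 5.13% ± 0.106, while MT1G went from 10.5% ± 0.780 to 8.66% ± 0.199 and MT1X from 5.04% ± 0.466 to 3.61% ± 0.152 (SD, n = 3 each), without overlap (exact two-sided permutation p = 0.1).
In HEK293 MT2A went from 63.6% ± 2.77 to 70.2% ± 3.90 and MT1X from 31.1% ± 1.85 to 23.1% ± 6.58, again without overlap (SD, n = 3 each, exact two-sided permutation p = 0.1). The Neuro2a shares, from 21 to 56 counts a library, overlapped, with Mt1 at 59.7% ± 10.1 and 55.4% ± 6.87. The part held by MT1X, with reads on the bases shared with its lncRNA included, was thus lower with irradiation in both human lines. In HEK293 its lowest nonirradiated and highest irradiated libraries were close, at 28.9% and 28.2%, and the difference of -7.99 percentage points was -4.27 without irradiated replicate 3 and -10.5 at the other end, without irradiated replicate 2.

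**Figure D3:**
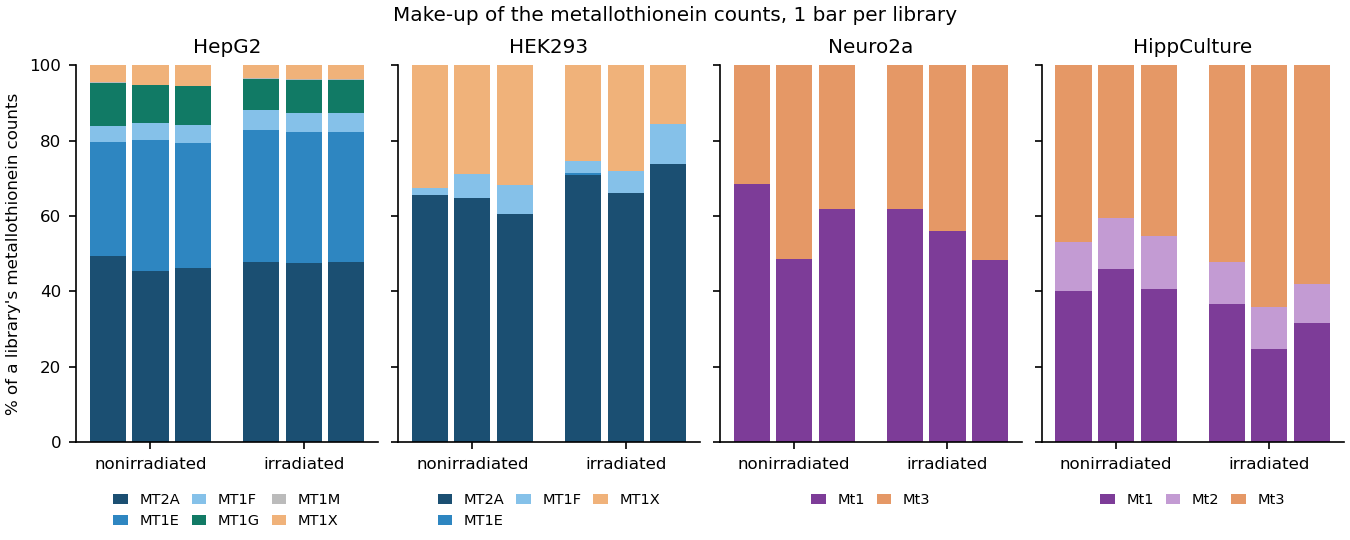
Percent of each library's metallothionein counts that belonged to each member, 1 bar per library in replicate order, for the 4 cell types. The Mt3 part of HippCulture bars is 40.6% to 46.9% without and 52.3% to 64.1% with irradiation, and MT2A and MT1E make up most of every HepG2 bar.

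Metallothionein mRNAs are short, and short mRNAs rose in general. Protein-coding genes with at most 1000 bases of exon had a median log2 fold change of 1.49 for HepG2, where 76.6% rose. It was 1.06 for HEK293 (61.5%), 1.56 for Neuro2a (71.8%) and 1.11 for HippCulture (68.1%). The files' exon lengths of the tested members run from 588 bases (Mt2) to 1889 bases (MT1F), as they join all annotated transcripts. Among protein-coding genes of at most 2000 bases, which covers all members, the medians were 1.46, 1.09, 1.15 and 0.82, and 77.4%, 64.8%, 68.1% and 63.3% rose. Above 2000 bases the medians were 0.07, -0.07, -0.17 and -0.02.
The member medians were 1.97, 1.31, 1.87 and 1.01 in the same order. Within genes of 1000 to 2000 listed exon bases the upper quartile was 1.90 in HepG2, below MT2A, MT1E and MT1F. MT1X in HepG2 lay at the median of this length class, which was 1.46, and all 3 HEK293 members lay between its quartiles of 0.45 and 1.501. Mt1 and Mt3 of Neuro2a were above the upper quartile of 1.53, and so was Mt3 of HippCulture, where that quartile was 1.11.

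**Figure D4:**
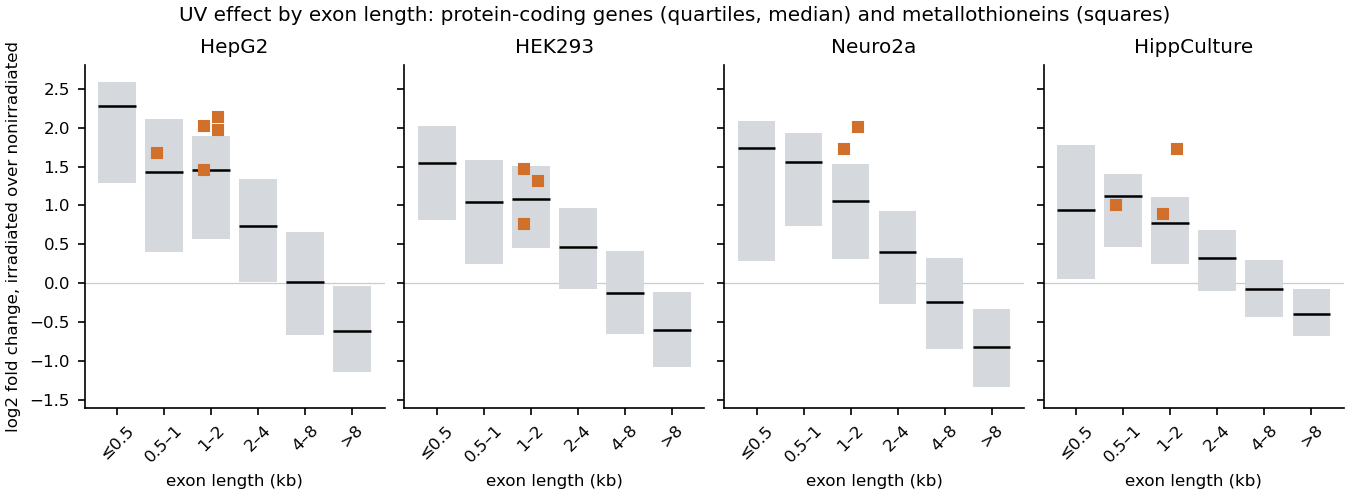
Log2 fold change (irradiated over nonirradiated) of protein-coding genes in 6 classes of exon length (kb), with grey bars from the lower to the upper quartile, a black line at the median, and orange squares for the tested metallothionein mRNAs. Medians fall from 2.28 in the shortest class to -0.61 in the longest class of HepG2. By listed exon length, which is longer than the principal mRNA, the squares lie at or above the middle of their classes except MT1X in HEK293 and Mt2 in HippCulture.

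Genes of zinc and copper handling held both rises and falls. In HepG2 12 of the 32 tested rose and 12 fell, 37.5% each, beside 38.1% and 40.7% of all genes (median log2 fold change 0.05, all genes -0.08). Of 32 in HEK293 9 rose and 12 fell (median -0.31). Neuro2a had 12 up and 12 down of 30 (0.29), and HippCulture 10 up and 11 down of 31 (0.15). The shares of all genes that rose and fell were 24.2% and 26.4% for HEK293, 28.9% and 33.0% for Neuro2a, and 26.1% and 25.9% for HippCulture. By library size alone, where 78.7%, 54.6%, 73.8% and 49.5% of all genes fell in the order of the cell types above, 68.8%, 62.5%, 63.3% and 51.6% of the listed genes did. MTF1, the zinc-sensing activator of metallothionein genes, fell by 1.05 in HepG2 and by 1.01 in HEK293 (SE 0.16 and 0.15, adjusted p = 3.16e-04 and 6.52e-04, edgeR). Mouse Mtf1 had 17.7 ± 0.593 and 34.5 ± 3.06 scaled CPM in Neuro2a and 26.5 ± 2.19 and 42.5 ± 4.21 in HippCulture (SD, n = 3 each), log2 fold changes of 0.96 and 0.68. By library size alone these were -0.24 and 0.13, not called, so that its direction depended on the scale. With TMM scaling Mtf1, of 8907 exon bases, lay above the upper quartile of that class in both, -0.33 and -0.07.
SLC30A1, the zinc exporter of the plasma membrane and another MTF1 target, fell in all 4 cell types, by 0.63 (HippCulture) to 1.41 (HEK293) on the log2 scale (adjusted p from 5.42e-06 to 6.26e-04, edgeR).
The zinc and copper genes with the highest called changes were SCO2 in HepG2 (2.20), COMMD1 in HEK293 (1.82), Sod1 in Neuro2a (1.96) and Atox1 in HippCulture (1.42), genes of copper handling and, for Sod1, of superoxide removal. Those with the lowest were the zinc transporters SLC30A8 in HepG2 (-3.12), SLC30A7 in HEK293 (-2.08) and Slc30a4 in Neuro2a (-1.81) and HippCulture (-1.07). SLC30A8 in HepG2 rested on 97, 76 and 65 counts without and 2, 3 and 7 with irradiation.

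Among genes of glutathione, thioredoxin and peroxide metabolism, other thiol-based defenses of the cell, more rose than fell with TMM scaling, and more fell than rose by library size alone, a scaling that moves all genes alike. Of those tested, 14 of 20 rose and 5 fell in HepG2 (median 1.23), 70% and 25% beside the 38.1% and 40.7% of all genes. By library size 25% rose and 40% fell there, beside 8.62% and 78.7% of all genes. HEK293 had 11 of 20 up and 3 down (0.87), Neuro2a 12 of 19 up and 4 down (0.41), and HippCulture 10 of 19 up and 4 down (0.54). Their shares of rises were 55%, 63.2% and 52.6%, beside 24.2%, 28.9% and 26.1% of all genes. By library size 25%, 21.1% and 26.3% of them rose and 35%, 68.4% and 36.8% fell, beside 7.61%, 6.07% and 7.14% of all genes that rose and 54.6%, 73.8% and 49.5% that fell. The highest were the glutathione peroxidases GPX4 in HepG2 (2.42) and Neuro2a (2.1) and GPX1 in HEK293 (1.96) and HippCulture (1.62), with exon lengths of 1430 to 2019 bases. The lowest in the human lines was SLC7A11, the cystine importer, in HepG2 (-1.84) and HEK293 (-1.75), with 9645 bases. Glutathione reductase Gsr, with 2754 bases, was the lowest in Neuro2a (-1.52) and HippCulture (-0.59). Protein-coding genes in the length class of Gsr had positive medians, 0.41 in Neuro2a and 0.33 in HippCulture.
Of 8 genes listed from either side of the metallothionein cluster, 3 of 7 tested rose and 1 fell in HepG2. HEK293 had 1 up and 2 down of 7, Neuro2a 2 up and 4 down of 8, and HippCulture 0 up and 3 down of 7. By library size alone none of them rose in any cell type and 7, 5, 7 and 6 fell, on a scale where 6.07% to 8.62% of all genes rose and 49.5% to 78.7% fell, so that with 7 or 8 genes these counts are near the background. NUP93, a nuclear pore protein gene, had log2 fold changes of 0.19 and -0.09 in the human lines, and Nup93 fell by 0.70 in Neuro2a and 0.29 in HippCulture, where the call (adjusted p = 0.044, edgeR) was lost with DESeq2 and without any single library except irradiated replicate 1 (adjusted p from 0.051 to 0.20, edgeR). BBS2 and Bbs2, of the ciliary BBSome, did not pass the test in any cell type (-0.02 to 0.16), and were at -0.45 to -1.21 by library size alone. The call of NUP93 in HepG2 (adjusted p = 0.048, edgeR) was lost under the other filters, with DESeq2 or its size factors, with the block and without any single library, and library size alone gave -1.12.

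**Figure D5:**
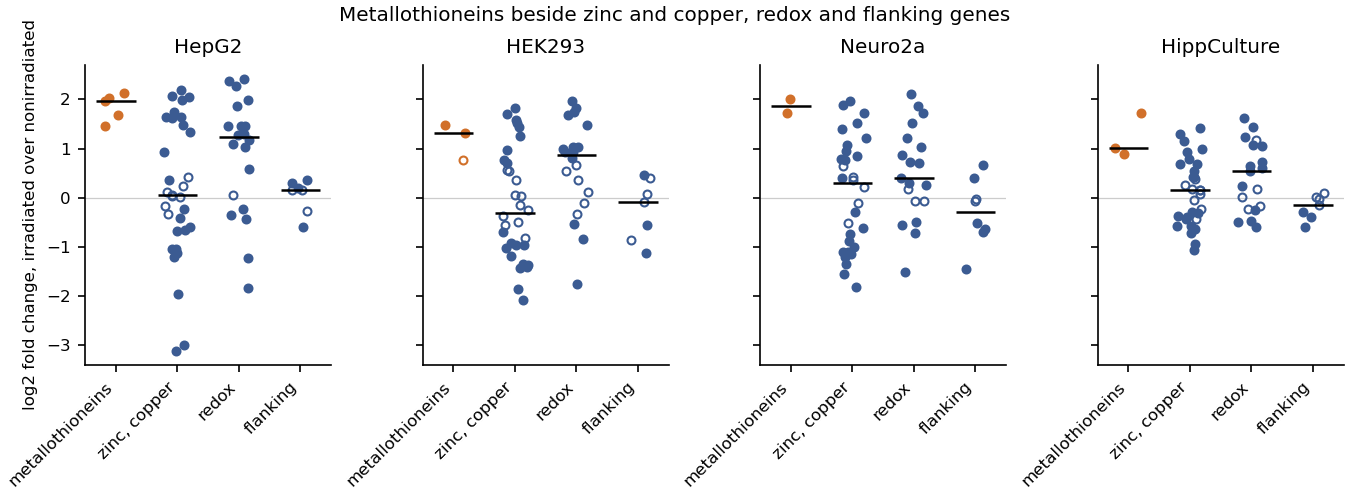
Log2 fold change (irradiated over nonirradiated) of each tested gene in 4 groups, metallothioneins (orange), zinc and copper handling, redox genes and flanking genes (blue), for the 4 cell types. Filled points passed an adjusted p of 0.05, open points did not, and black lines mark medians, at 1.97 for metallothioneins and 0.05 for zinc and copper genes in HepG2.

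Levels without irradiation were compared per length as RPKM, which divides CPM by kilobases of exon. In HepG2 the order was MT2A (59.6 ± 2.94), MT1E (51.7 ± 8.07), MT1G (23.1 ± 0.527), MT1X (4.71 ± 0.748), MT1F (3.93 ± 0.489) and MT1M (0.330 ± 0.158; SD, n = 3 each), in which MT2A and MT1E overlapped and so did MT1X and MT1F. By length of the principal coding transcript the order was the same and the values higher, 193 for MT2A and 77.3 for MT1E. MT2A ranked 406th and MT1E 473rd of 13735 protein-coding genes tested in HepG2. In HEK293 MT2A (6.70 ± 1.05), MT1X (2.40 ± 0.457) and MT1F (0.368 ± 0.191) did not overlap, and MT2A ranked 6117th of 14424.
In HippCulture the order was Mt3 (40.2 ± 2.85), Mt1 (33.3 ± 7.20) and Mt2 (22.3 ± 2.90), and Mt3 and Mt1 overlapped. Mt3 ranked 667th of 13977 protein-coding genes there. In Neuro2a Mt1 (1.82 ± 0.556) and Mt3 (1.44 ± 0.496; SD, n = 3 each) overlapped, and ranked 9727th and 10213th of 13119.

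Between the human lines without irradiation, MT2A was 12.9-fold, MT1F 15.3-fold and MT1X 2.85-fold higher in HepG2 (log2 differences -3.69, -3.94 and -1.51 for HEK293 minus HepG2, SE 0.15, 0.27 and 0.24, adjusted p = 4.06e-12, 2.35e-09 and 2.80e-05, edgeR). Of 23830 genes 77.0% differed in level and 40.6% were higher in HepG2. Pooled HepG2 CPM by library total were set against the limit that 3 counts over the HEK293 group set. The ratio was 530 for MT1E, 166 for MT1G and 2.90 for MT1M. Unlike the folds above, these ratios use no TMM factors and leave out the spread in HepG2. MT1M rested there on 17, 16 and 7 counts. HepG2 was sequenced on another sequencer model (HiSeq4000) than the rest (HiSeq2500), and cell line and sequencer cannot be told apart. Between the mouse cell types, Mt3 was 28.3-fold and Mt1 18.7-fold higher in HippCulture (log2 4.82 and 4.22, SE 0.19 and 0.20, adjusted p = 7.51e-20 and 1.26e-17, edgeR). For Mt2 the unscaled ratio to the limit in Neuro2a was 109. Of 20940 genes 79.9% differed and 39.6% were higher in HippCulture.
Whether irradiation acted differently in the cell types was tested as an interaction, which 4.73% of genes passed between the human lines and 17.8% between the mouse cell types. Among the 5 members tested in both cell types of a species, 0 passed (edgeR). The difference for MT2A (HEK293 minus HepG2) was -0.52, with a 95% interval of -0.91 to -0.12 (unadjusted p = 0.021, adjusted p = 0.18, edgeR). It passed with the replicate number as a block (-0.51, adjusted p = 0.027, edgeR), with DESeq2 (-0.55, adjusted p = 0.036) and without irradiated HEK293 replicate 1 (-0.85, adjusted p = 0.0087, edgeR), and by library size alone it was -0.13 (adjusted p = 0.74, edgeR). MT1F and MT1X gave -0.50 (-1.38 to 0.37) and -0.55 (-1.21 to 0.11). Leaving out a single library moved these to between -1.09 (without irradiated HEK293 replicate 3) and -0.13 (without nonirradiated HEK293 replicate 3) for MT1F. For MT1X they moved to between -0.94 (without irradiated HEK293 replicate 2) and -0.37 (without nonirradiated HEK293 replicate 1), and none passed the test. Between HippCulture and Neuro2a Mt1 gave -0.70 (-1.34 to -0.06, unadjusted p = 0.041, adjusted p = 0.15, edgeR), which passed only with DESeq2 (-0.94, adjusted p = 0.040) and was -0.19 by library size alone, and Mt3 gave -0.15 (-0.73 to 0.43), or 0.35 by library size alone. Of these 5, MT2A and Mt1 were under an unadjusted p of 0.05.

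The genes most like the leading member of each species were looked for over its 12 samples, which fall into 4 groups and share library composition within each, so that r mostly follows the contrast of cell types and irradiation. For MT2A, log2(CPM + 1) of TESC, a calcium-binding protein, was the most alike (Pearson's r = 0.997), then ACY1, an aminoacylase (0.997), ASL of the urea cycle (0.996), NECTIN2, an adhesion protein (0.995), and ABHD14A-ACY1 (0.995), which shares exons and thus reads with ACY1, out of 15563 protein-coding genes. MT1E ranked 30th (0.990), MT1G 71st (0.988), MT1F 240th (0.977) and MT1X 944th (0.902). For Mt3 they were 2210016L21Rik (0.998), Higd2a (0.996), Map1lc3a of autophagy (0.996), Serp2 (0.994) and the Notch target Hes5 (0.994) of 15030, with Mt2 at rank 56 (0.987) and Mt1 at 118 (0.982).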

How the data were processed

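Per the file headers, the authors deposited raw counts per gene, made with featureCounts 1.5.3 (HepG2) or 1.6.1 on GENCODE 28 or M17 exons. Their processing notes name TopHat2 2.1.1 for mapping, with hg38 and mm10 as builds. Reads on several genes counted for each, and 0 of the files used options for strand or multi-mapping reads. The labels and the paper name different TruSeq kits, so strandedness is unsure, and the paper's methods name HEK293T where the labels give HEK293. Gene names were matched for 98.93% of human and 99.82% of mouse genes. Members, gene lists and classes of exon length were chosen with earlier results of these data known. Tests used edgeR 4.0.16 in R 4.3.3 and DESeq2 1.42.0 as an alternative, with a minimum mean of 0.5 CPM in nonirradiated samples, called at an adjusted p under 0.05. SE is the log2 fold change divided by the square root of F, and 95% intervals are normal. Single values were compared by exact two-sided permutation (3 against 3). A limit for 0 counts is 3 counts over the group and covers counting error only, whereas the intervals rest on the SE and so include the fitted spread between samples. The repeat length of 50 bases was a choice, as the read length was not given in the sources used here. Principal transcripts are from GENCODE 44 and M21. All members were named, with MTF1, SLC30A1, NUP93 and BBS2, the called zinc, copper and redox genes of most positive and most negative change, other metallothionein genes that were tested or had more than 10 counts, and the 5 protein-coding genes most alike. Deviations from group means correlated between same-numbered samples at 0.37 to 0.65 in HEK293 and 0.10 to 0.29 in Neuro2a (every number above 0.1, taken as paired), and at -0.02 to 0.01 in HepG2 and 0.06 to 0.14 in HippCulture (not paired). No 2 replicates agreed within sampling noise (chi-square per degree of freedom at least 2.55). It was highest for nonirradiated HepG2 replicate 1 against replicates 2 and 3, 130 and 94.2, and 3.20 between replicates 2 and 3. Replicate 1 of HEK293 was also apart, at 16.2 and 20.1 without and 29.7 and 35.1 with irradiation. Replicates 2 and 3 of HEK293 were at 4.73 without and 3.61 with irradiation. Code was tested on simulated counts.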

Additional observations from a re-analysis of the deposited data

How the results depend on the processing

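Of 167 refits of single members, 155 kept direction and call. Library size alone left 1 called member in HEK293 (MT2A) and 1 in Neuro2a (Mt3). It gave -0.0049 for MT1X in HEK293, not called, and 0.35 for the Mt3 difference between HippCulture and Neuro2a. It also turned NUP93 (-1.12) and BBS2 (-1.15) in HepG2, BBS2 in HEK293 (-0.68), Mtf1 in Neuro2a (-0.24) and Bbs2 in HippCulture (-0.45). In the order HepG2, HEK293, Neuro2a and HippCulture, it lowered the number of genes higher with UV from 7660, 4962, 5033 and 4822 to 1734, 1557, 1058 and 1320, and raised that of lower genes from 8189, 5405, 5746 and 4791 to 15830, 11168, 12852 and 9149. The lists of other genes were counted by library size after seeing the data. With at least 10 counts in every sample, 1 member was called in HEK293 and 1 in Neuro2a, since MT1F and Mt3 were no longer tested. Among differences in UV effect, 1 passed with DESeq2 between the human lines and 1 between the mouse cell types, and 1 between the human lines with the replicate block. The cause was not tested. Beside MT1X in HEK293 (0.75, adjusted p = 0.0019, edgeR) the block changed no other call of a member, and NUP93 lost its call in HepG2.
Without each replicate in turn, called members numbered 1 to 2 in HEK293, 5 in HepG2, 2 in Neuro2a and 3 in HippCulture, and differences between the human lines 0 to 1. The Mt3 difference ranged from -0.50 to 0.18 (0.006 without nonirradiated Neuro2a replicate 3 and 0.18 without irradiated replicate 3). The change in the part of MT2A in HepG2 ranged from -0.04 to 1.91 percentage points and that of Mt1 in Neuro2a from -9.76 to 0.13. Over filters and left-out replicates, 266 of 287 values of the other named genes kept direction and call, and 8 reversed, all of NUP93, BBS2 or Bbs2. Depth limits Neuro2a and MT1F in HEK293, where tested members had 3 to 29 counts a library.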
